A study of Homo sapiens with 4 samples.

Results

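The genes described here encode the subunits, activators, inhibitor and assembly factors of the proteasome. They are the protein-coding genes whose symbol is PSMA, PSMB, PSMC, PSMD, PSME, PSMF or PSMG followed by digits, without PSMB8 and PSMB9. RefSeq holds 46 such genes, 45 of them had a row among the 60554 rows of the table, and 43 were measured, meaning that their mean normalised count over the libraries was at least 50. That count minimum kept 12662 genes in all, and no gene was chosen by its ratios. The measured genes are 15 of the core, 17 of the regulatory cap, 4 activators, 1 inhibitor and 6 assembly factors. PSMA8, the testis form of an alpha subunit, had 0 counts in all 4 libraries, which allows up to 3 counts, or 0.0479 to 0.0629 CPM (counts per 1000000 counts of a library). PSMB11, a beta subunit of the thymus, had 2 counts on the miR-491-5p beads and 0 in the other libraries. PSMG4 had no row that matched its position closely enough. PSMC3IP and PSME3IP1, whose symbols go on after the digits and whose products are not proteasome subunits, were left out.

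The study transfected IGROV1-R10 cells, a cisplatin-resistant line derived from the IGROV1 ovarian carcinoma line, with microRNAs that carried biotin, and asked which RNAs were recovered with miR-491-5p on streptavidin beads. There were 4 groups of 1 library each: the pull-down of cells given biotin-miR-491-5p (called the miR-491-5p beads), that of cells given the nematode microRNA cel-miR-65 with biotin (the control beads), and the input of each transfection (the miR-491-5p lysate and the control lysate). All cells received a biotin-carrying microRNA at 60 nM, so no library shows untransfected cells, and nuclei were spun out of the lysates. RNA of 3 experiments in 1 cell line was pooled before sequencing, so the spread between experiments cannot be seen.

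The proteasome degrades proteins marked with ubiquitin. Its core is a barrel of alpha and beta rings with the proteolytic sites inside, and its regulatory cap binds ubiquitin, removes it and unfolds the protein with a ring of ATPases. The subunits are made together: in mammalian cells the transcription factors NFE2L1 and NFE2L2 raise many proteasome genes through antioxidant response elements in their promoters. Cancer cells, which make much protein, often depend on the complex, and proteasome inhibitors are used as drugs. MicroRNAs bind RNA mainly through bases 2 to 8 of their 5′ end, the seed. The mature miR-491-5p, from RefSeq (GRCh38.p14, chr9:20716120-20716141, + strand, 22 bases), is shown because it was the bait, with the seed in capitals.
hsa-miR-491-5p: aGUGGGGAacccuuccaugagg
A fully paired seed site in an RNA reads UCCCCAC. Sites in the transcripts of the proteasome genes were not analysed here.

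The libraries held 61705443 counts (miR-491-5p beads), 62582646 (control beads), 59588552 (miR-491-5p lysate) and 47679684 (control lysate). With 1 library per group, ratios between libraries have no replicate check, and their 95% intervals, in parentheses, cover counting error only. Of 9 epithelial and ovarian markers KRT8, KRT18, KRT19, EPCAM and PAX8 were abundant and WT1 had 694 to 1302 counts, while CDH1 had 188 to 599, MUC16 84 to 337 and EMX2 2 to 9. The control lysate stood apart: 9 hepatocyte markers summed to 2618 counts there, while the sums were 32 (miR-491-5p beads), 21 (control beads) and 9 (miR-491-5p lysate). For 6 fibroblast markers the sum was 585 there and 56, 53 and 276 in those libraries. The input ratio, the control bead ratio and the enrichment below all use the control lysate, and the part of these transcripts in them was not tested. ALB, the albumin gene, reached 1298 counts in that lysate, while the other 3 libraries held 0, 2 and 5. Immune markers summed to at most 55 counts, erythroid markers to at most 28, and of the endothelial markers CDH5 had 2443 to 7823 counts, VWF 30 to 47 and PECAM1 30 to 74. Of the 43 measured genes, 33 had over 90% of their exon bases to themselves. PSMC1 had only 24.2%, PSMB10 65.2%, PSMA2 65.4% and PSMD7 69.3%. Reads were counted without regard to strand, so reads of overlapping genes on either strand cannot be assigned, and reads over bases shared by 2 genes were not counted. Reads that fit several places were not counted either, and 21 members have at least 1 pseudogene in RefSeq, 13 in the case of PSMC1, so their counts are uncertain.

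Proteasome genes made up 0.472% of the counts on the miR-491-5p beads (95% Clopper-Pearson binomial interval 0.471 to 0.474%) and 0.381% on the control beads (0.379 to 0.382%), against 0.596% in the miR-491-5p lysate (0.594 to 0.598%) and 0.612% in the control lysate (0.610 to 0.615%). Their share was thus lower on both bead fractions than in either lysate, and higher on the miR-491-5p beads than on the control beads. Divided by exon length and scaled so that the levels of all genes of a library sum to 1000000, they summed to 5229 on the miR-491-5p beads and 4242 on the control beads, against 5738 in the miR-491-5p lysate and 5837 in the control lysate. Core genes had the largest part of this level in the lysates, 2799 after miR-491-5p and 2865 after the control microRNA. Cap genes followed with 1954 and 1994. On the beads the cap came closer to the core, at 2038 against 2243 with miR-491-5p and 1547 against 1867 with the control.

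Levels per length differed widely among the members, although most subunits enter the complex in equal numbers. The length includes exon bases shared with other rows, whose reads were not counted. Levels of members with shared bases can therefore be too low. PSMA7, an alpha subunit, was highest, at 414 on the miR-491-5p beads and 448 on the control beads, against 643 in the miR-491-5p lysate and 660 in the control lysate. Next in the order came PSMB3, PSMB7, PSMB4 and PSMB1 of the beta ring. PSMB3 had 232 on the miR-491-5p beads and 161 on the control beads, against 293 in the miR-491-5p lysate and 295 in the control lysate. For PSMB7 the levels were 268 on the miR-491-5p beads and 177 on the control beads, against 259 in the miR-491-5p lysate and 264 in the control lysate. The order of these genes changed between libraries: PSMB3 was above PSMB7 in both lysates and below it on both beads. At the other end stood PSMD9, an assembly chaperone of the ATPase ring, at 1.93 on the miR-491-5p beads and 1.77 on the control beads, against 1.45 in the miR-491-5p lysate and 1.77 in the control lysate. The next lowest was PSMB10, the subunit that takes the place of PSMB7 in the immunoproteasome, at 2.93 on the miR-491-5p beads and 2.96 on the control beads, against 4.52 in the miR-491-5p lysate and 3.95 in the control lysate. Next came PSMA6, at 4.96 on the miR-491-5p beads and 3.49 on the control beads, against 4.82 in the miR-491-5p lysate and 4.08 in the control lysate, although every barrel holds its product. The PSMA6 row shares 919 of its 6506 exon bases with other rows, among them a readthrough gene that joins PRORP to PSMA6, and its low level was not examined further.

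**Figure D1:**
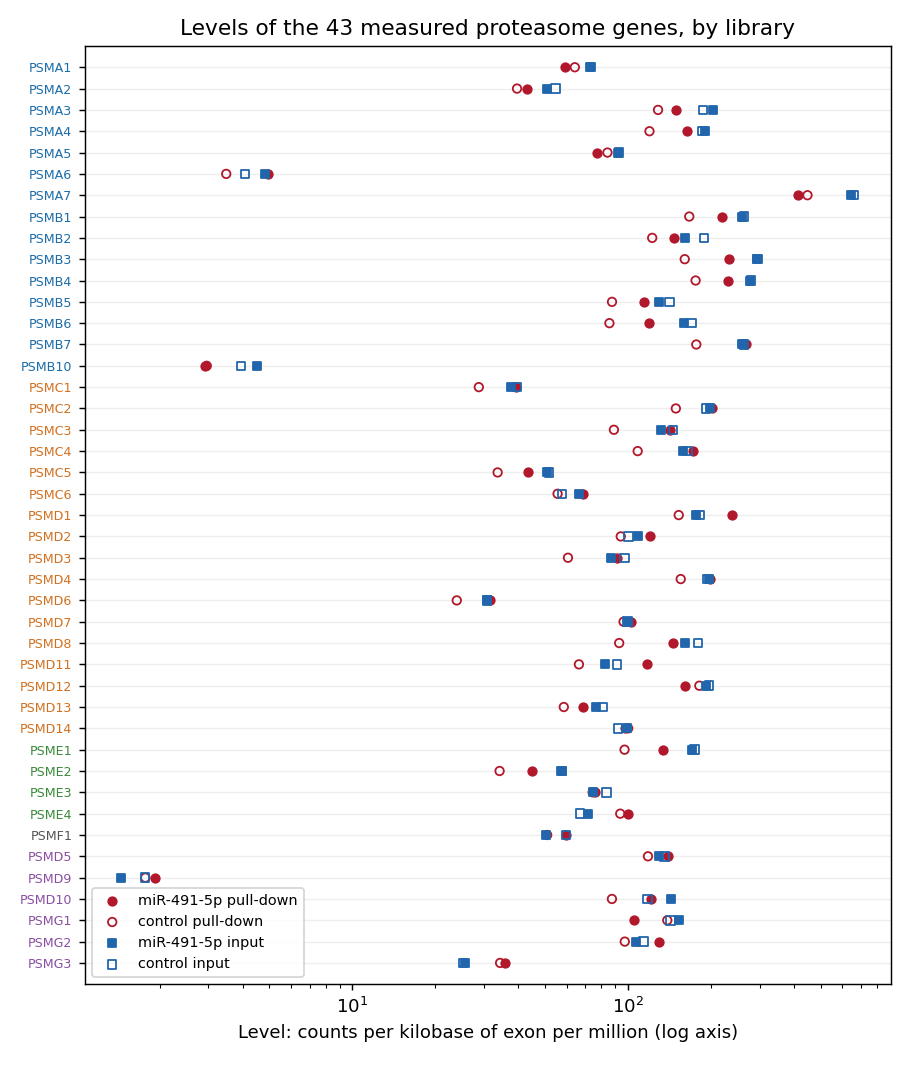
Level of each measured proteasome gene per kilobase of exon, scaled to 1000000 per library (log scale), with a point for each of the 4 libraries and the genes grouped by role. PSMA7 has the highest levels with 414 to 660, and PSMD9, PSMB10 and PSMA6 have the lowest with 1.5 to 5.0.

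The input ratio compares the lysate of cells given miR-491-5p with that of cells given the control microRNA. Proteasome RNAs were at nearly the same level in both. Their median log2 ratio was -0.02 (range -0.28 to 0.29), against a median of -0.01 over all genes measured, and 41 of 43 lay within 1.2-fold, as did 69.0% of all genes. No member passed 2-fold with an interval excluding 0, the rule used for a call below, in a comparison where it called 0.727% of all genes higher and 0.513% lower. At 1.5-fold 0 members were called too (background 3.44% higher and 3.03% lower). Intervals excluded 0 for 10 members on the higher side (background 29.0%) and 15 on the lower side (29.5%). In bulk RNA, fewer cells with a transcript and less RNA per cell cannot be told apart.

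The members at the upper end were PSMD10, PSMA6 and PSMC6. PSMD10 encodes gankyrin, a chaperone of the cap ATPases, and had 3693 normalised counts on the miR-491-5p beads and 2920 on the control beads, against 6613 in the miR-491-5p lysate and 5421 in the control lysate. Its input ratio was 0.29 (0.23 to 0.34). PSMA6 had 399 (miR-491-5p beads) and 308 (control beads) normalised counts, against 590 (miR-491-5p lysate) and 499 (control lysate), and its input ratio was 0.24 (0.06 to 0.43). PSMC6, an ATPase of the cap, had 6343 (miR-491-5p beads) and 5643 (control beads) normalised counts, against 9366 (miR-491-5p lysate) and 8082 (control lysate), which gave 0.21 (0.17 to 0.26). All 3 were higher in the miR-491-5p lysate and also on the miR-491-5p beads. At the lower end stood PSMD9, PSMF1 and PSMB2. PSMD9 had 209 (miR-491-5p beads) and 211 (control beads) normalised counts, against 240 (miR-491-5p lysate) and 292 (control lysate), an input ratio of -0.28 (-0.54 to -0.01) on few counts. PSMF1, an inhibitor of the core particle, had 3910 (miR-491-5p beads) and 3661 (control beads) normalised counts, against 5039 (miR-491-5p lysate) and 5918 (control lysate), or -0.23 (-0.29 to -0.17). The beta subunit PSMB2 had 8785 (miR-491-5p beads) and 8051 (control beads) normalised counts, against 14677 (miR-491-5p lysate) and 17130 (control lysate), a ratio of -0.22 (-0.26 to -0.19). All 6 lay well inside 1.5-fold. PSMF1 and PSMB2, lower in the miR-491-5p lysate, were slightly higher on the miR-491-5p than on the control beads, at 0.09 (0.03 to 0.15) and 0.13 (0.09 to 0.17).

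The bead ratio sets each pull-down against its own input. Proteasome RNAs were under-represented on the beads with either microRNA. With miR-491-5p the median log2 ratio was -0.63 (range -1.24 to -0.10), against -0.15 over all genes, and with the control microRNA it was -0.89 (range -1.46 to 0.02), also against -0.15. All 43 measured members lay below 0 with miR-491-5p (background 60.2%), and 42 did with the control (background 57.9%), PSME4 being the exception at 0.02 (-0.02 to 0.05). With miR-491-5p 5 members were at least 2-fold lower and 0 higher, against 4.96% and 5.34% of all genes. At 1.5-fold 23 were lower and 0 higher (background 20.8% and 12.5%). With the control 17 were at least 2-fold lower and 0 higher, against 10.0% and 8.61% of all genes. At 1.5-fold these counts were 34 and 0 (background 26.9% and 17.7%). PSMA3, PSMA7 and PSMB6 were 2-fold lower with both (background 2.84%). Scaling by total counts moves the median of all genes by 0.32 on the miR-491-5p beads and 0.14 on the control beads, and puts 5 members above 0 with miR-491-5p, and size factors over protein-coding genes put 3 there. Relative to the median of all genes the members lay at -0.48 and -0.74 under each of the 4 scalings tried. A change of scaling shifts all genes almost alike, so this sameness is built in and is no separate check. Among all genes called at 2-fold, 51.8% were higher with miR-491-5p, and 46.2% on control beads; with total counts these shares are 90.8% and 62.6%, and with size factors over protein-coding genes 70.7% and 65.6%.

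Taking the 2 transfections as pairs, pull-down was tested against input with the quasi-likelihood test of edgeR, with Benjamini-Hochberg adjustment over all 12662 genes. The pairs received different microRNAs and leave 1 residual degree of freedom. The test averages over both pairs, so a call need not reflect a change on both sets of beads. FGA, a hepatocyte marker, had 213 counts in the control lysate and 0 in the other libraries, and its log2 change was -9.96. In the log2 changes of this fit, pull-down over input, the median of all genes was 0.02 and that of the members -0.63. At an adjusted p under 0.05, 11 of 43 members fell (background 5.09%) and 0 rose (background 6.82%). At an unadjusted p under 0.05, 29 were lower (background 15.3%) and 0 higher (16.8%). The 11 were PSMA3, PSMA7, PSMB1, PSMB3, PSMB4, PSMB5, PSMB6, PSMC5, PSMD8, PSME1 and PSME2. They hold 7 of the 15 core genes, 2 of 17 cap genes, 2 of 4 activators, and none of the 6 assembly factors. This split depends on the threshold. The 29 at an unadjusted p under 0.05 were 14 core genes, 11 cap genes, 2 activators and 2 assembly factors. PSMB6 alone passed 2-fold as well (background 2.65%). DESeq2 called 21 members lower (background 10.5%) and 0 higher, where it called 648 of the 12662 genes higher. Those 21 were 12 core genes, 5 cap genes, 2 activators and 2 assembly factors. With total counts edgeR called 7 lower (background 3.37%) and 0 higher, where it called 1129 of the 12662 genes higher.

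**Figure D2:**
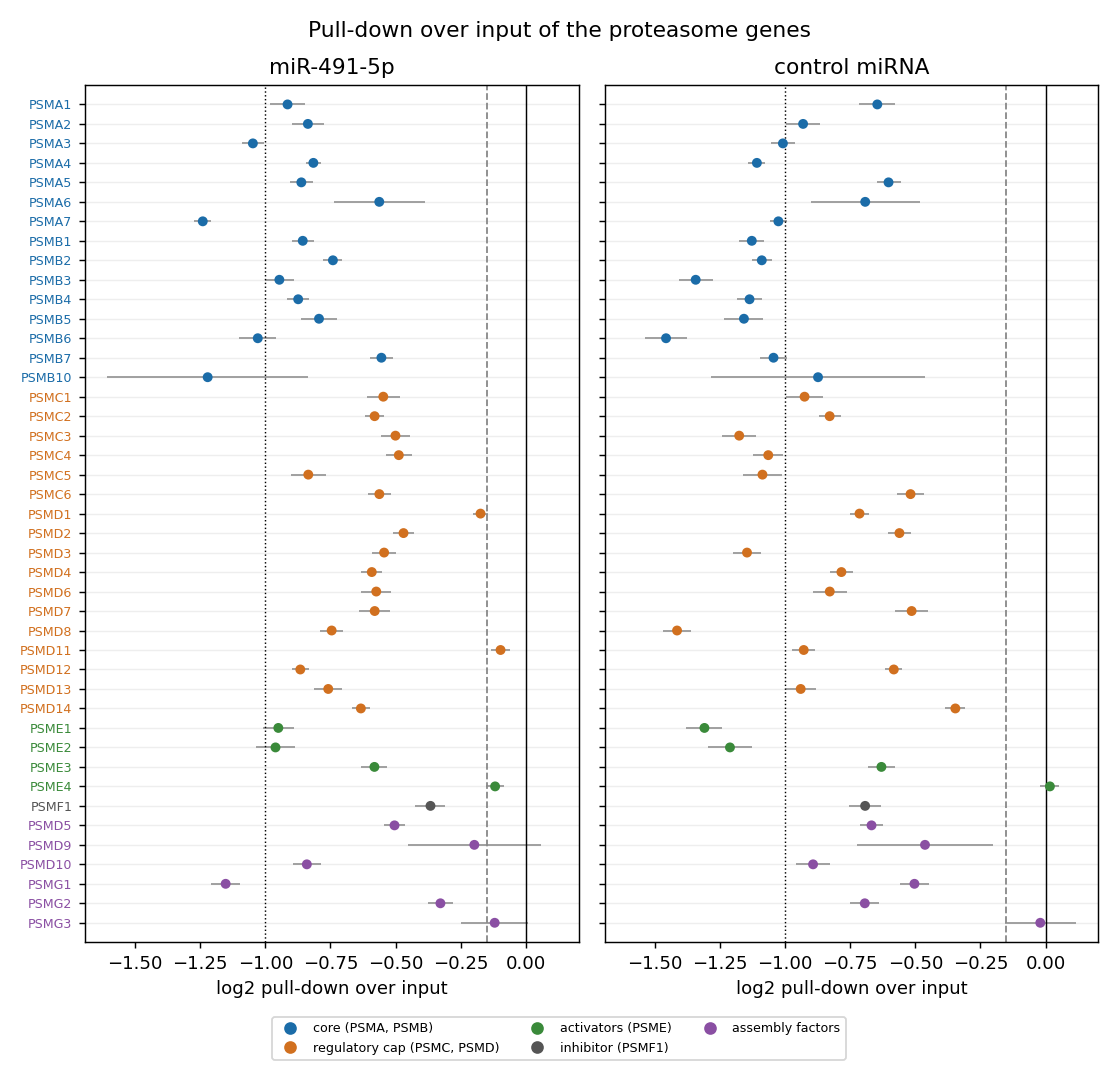
Log2 ratio of pull-down over input for each measured proteasome gene with miR-491-5p (left panel) and with the control microRNA (right panel), coloured by role, with 95% counting intervals. The dashed line is the median of all genes (-0.15 in both) and the dotted line marks 2-fold lower. The members lie between -1.24 and -0.10 with miR-491-5p and between -1.46 and 0.02 with the control.

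Of the catalytic subunits, PSMB6 carries the caspase-like site of the core (Ensembl gene ENSG00000142507.9, GRCh38 chromosome 17, 4796144 to 4798503). It had 2139 normalised counts on the miR-491-5p beads and 1684 on the control beads, against 4364 in the miR-491-5p lysate and 4623 in the control lysate. Its bead ratios were -1.03 (-1.10 to -0.96) for miR-491-5p and -1.46 (-1.54 to -1.38) for the control. The latter was the lowest control value of any member, and the edgeR change was -1.10 (adjusted p = 0.025). PSMB5, the chymotrypsin-like site and the main target of bortezomib, had 2494 (miR-491-5p beads) and 2098 (control beads) normalised counts, against 4324 (miR-491-5p lysate) and 4681 (control lysate). It also fell (edgeR -0.83, adjusted p = 0.045). PSMB7, the trypsin-like site, had 5933 (miR-491-5p beads) and 4294 (control beads) normalised counts, against 8713 (miR-491-5p lysate) and 8855 (control lysate), and did not pass the threshold (edgeR -0.65, adjusted p = 0.096). Its control beads were at -1.04, while its miR-491-5p beads, at -0.55, were the least reduced of the core. PSMB10 had 67.1 (miR-491-5p beads) and 74.6 (control beads) normalised counts, against 158 (miR-491-5p lysate) and 137 (control lysate). At these counts its bead ratios were -1.22 (-1.61 to -0.84) with miR-491-5p, and -0.87 (-1.28 to -0.46) on control beads, and the edgeR change was -0.91, adjusted p = 0.088.

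The other core genes followed the same direction. PSMA7 (ENSG00000101182.14, chromosome 20, 62136735 to 62143440) had 8976 normalised counts on the miR-491-5p beads and 10642 on the control beads, against 21200 in the miR-491-5p lysate and 21664 in the control lysate. Its ratio on the miR-491-5p beads, -1.24 (-1.27 to -1.21), was the lowest of all members (edgeR -0.99, adjusted p = 0.038). PSMA3, another alpha subunit, had 5760 (miR-491-5p beads) and 5444 (control beads) normalised counts, against 11907 (miR-491-5p lysate) and 10950 (control lysate), which was about as low on both beads, at -1.05 with miR-491-5p, and -1.01 on control beads (edgeR -0.88, adjusted p = 0.041). PSMB3, a beta subunit without a proteolytic site, had 3380 (miR-491-5p beads) and 2572 (control beads) normalised counts, against 6511 (miR-491-5p lysate) and 6525 (control lysate). Its bead ratios of -0.95 with miR-491-5p, and -1.34 on control beads belong to a gene that fell in the edgeR test (adjusted p = 0.03). The remaining core members PSMA1, PSMA2, PSMA4, PSMA5, PSMA6, PSMB1, PSMB2 and PSMB4 lay between -0.91 and -0.56 with miR-491-5p and between -1.14 and -0.60 on control beads. Of these, PSMB1 (-0.84, adjusted p = 0.046) and PSMB4 (-0.86, adjusted p = 0.045) fell in the edgeR test.

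Cap genes had higher bead ratios than core genes. The median bead ratio of the 17 cap genes was -0.57 with miR-491-5p, and -0.83 on control beads, against -0.86 and -1.04 for the 15 core genes. The difference of medians, core minus cap, was -0.29 with miR-491-5p, and -0.22 on control beads, and with 1 library per group it has no test. The 6 ATPases PSMC1 to PSMC6 had medians of -0.55 and -0.99, and the 11 other cap genes -0.58 and -0.78. The highest values of all members with miR-491-5p, with intervals excluding 0, came from PSMD11, PSME4 and PSMD1. PSMD1, a large scaffold subunit of the cap, had 15313 (miR-491-5p beads) and 10761 (control beads) normalised counts, against 17274 (miR-491-5p lysate) and 17654 (control lysate), or -0.17 (-0.20 to -0.14) with miR-491-5p, and -0.71 (-0.75 to -0.68) on control beads. PSMD8, a lid subunit, had 5618 (miR-491-5p beads) and 3917 (control beads) normalised counts, against 9417 (miR-491-5p lysate) and 10442 (control lysate). It was among the 3 lowest with the control, at -1.41 (-1.47 to -1.36), but not with miR-491-5p, at -0.75 (-0.79 to -0.70), and it fell in the edgeR test (-0.93, adjusted p = 0.045). PSMC5, an ATPase, fell as well (-0.81, adjusted p = 0.045). The ATPases PSMC1, PSMC2 and PSMC6, the scaffold PSMD2, the ubiquitin receptor PSMD4, the lid genes PSMD6 and PSMD13, and PSMD7, which pairs with PSMD14, did not pass the test. Their bead ratios lay between -0.76 and -0.47 with miR-491-5p and between -0.94 and -0.51 on control beads. PSMD14, the deubiquitinase that removes ubiquitin from substrates, had 9277 (miR-491-5p beads) and 10468 (control beads) normalised counts, against 14388 (miR-491-5p lysate) and 13309 (control lysate). Its control ratio of -0.35 (-0.38 to -0.31) was the highest of those with an interval excluding 0, ahead of PSMD9 at -0.46 and PSMG1 at -0.50.

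Of the activators, PSME1 and PSME2 fell, and PSME3 and PSME4 did not pass the test. PSME1 and PSME2 form the ring that opens the core without ubiquitin and is induced by interferon. PSME1 had 2961 normalised counts on the miR-491-5p beads and 2350 on the control beads, against 5720 in the miR-491-5p lysate and 5824 in the control lysate. Its bead ratios were -0.95 with miR-491-5p, and -1.31 on control beads (edgeR -0.98, adjusted p = 0.031). PSME2 had 1991 (miR-491-5p beads) and 1664 (control beads) normalised counts, against 3875 (miR-491-5p lysate) and 3855 (control lysate), with bead ratios of -0.96 and -1.21 in the same order (edgeR -0.94, adjusted p = 0.033). In both genes the bead values lay under the lysate values. PSME3, the nuclear member of that family, had 4838 (miR-491-5p beads) and 5209 (control beads) normalised counts, against 7239 (miR-491-5p lysate) and 8063 (control lysate), at -0.58 with miR-491-5p, and -0.63 on control beads. PSME4, a large single-chain activator, had 12701 (miR-491-5p beads) and 13035 (control beads) normalised counts, against 13782 (miR-491-5p lysate) and 12886 (control lysate). Its 4 libraries lay within 1.2-fold, with bead ratios of -0.12 (-0.15 to -0.08) and 0.02 (-0.02 to 0.05), and edgeR gave 0.10, adjusted p = 0.8 for PSME4. PSMF1 was at -0.37 with miR-491-5p, and -0.69 on control beads (edgeR -0.38, adjusted p = 0.25).

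Assembly factors were the least reduced class beside PSMF1, with medians of -0.42 with miR-491-5p, and -0.59 on control beads. PSMG1 and PSMG2 form the dimer that helps build the alpha ring. PSMG1 (ENSG00000183527.11, chromosome 21, 39174769 to 39183851) had 3271 normalised counts on the miR-491-5p beads and 4741 on the control beads, against 7269 in the miR-491-5p lysate and 6721 in the control lysate. It was low on the miR-491-5p beads, at -1.15 (-1.21 to -1.10), and less so on the control beads, at -0.50 (-0.56 to -0.45). PSMG2 had 5378 (miR-491-5p beads) and 4437 (control beads) normalised counts, against 6750 (miR-491-5p lysate) and 7177 (control lysate) and ran the other way, at -0.33 with miR-491-5p, and -0.69 on control beads. PSMG3, which pairs with PSMG4, had 868 (miR-491-5p beads) and 915 (control beads) normalised counts, against 943 (miR-491-5p lysate) and 928 (control lysate). The intervals of both bead ratios of PSMG3 held 0, at -0.12 (-0.25 to 0.01) and -0.02 (-0.16 to 0.12). The row that spans PSMG4 covers 71971 bases, against 13646 for the RefSeq gene, and its name is unsettled; its bead ratios were -0.49 and -0.53. PSMD5, a chaperone of the cap ATPases, had 7641 (miR-491-5p beads) and 7112 (control beads) normalised counts, against 10836 (miR-491-5p lysate) and 11302 (control lysate), or -0.50 with miR-491-5p, and -0.67 on control beads. PSMD10 was lower, at -0.84 and -0.89, and PSMD9 higher, at -0.20 and -0.46. With edgeR 0 of the 6 assembly factors passed the threshold, PSMD10 and PSMG1 were lower at an unadjusted p under 0.05 (background 15.3%), and DESeq2 called the same 2 genes (background 10.5%).

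The study's own measure, enrichment, divides the ratio of the pull-downs, miR-491-5p over control, by that of the inputs. Proteasome RNAs were modestly higher by this measure, with no member past 2-fold. The median log2 enrichment was 0.25, or 1.19-fold (range -0.65 to 0.83), against 0.00 over all genes, and 31 members were above 0 (background 50.1%). At 2-fold 0 members were higher and 0 lower, where the rule called 4.46% of all genes higher and 5.32% lower. At 1.5-fold PSMC3, PSMD3, PSMD8 and PSMD11 were higher (background 13.2%) and PSMG1 was lower (14.0%), shares below the background. Intervals excluded 0 for 27 members on the higher side (35.4% of all genes) and 7 on the lower side (35.3%). Scaling by total counts adds 0.18 to the median of all genes and shifts the members almost alike. The members' distance of 0.25 above that median is therefore the same under each scaling by construction. The share of higher genes among all 2-fold calls was 45.6%, and 66.6% with total counts.

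The pull-downs differed more than the inputs. The pull-down ratio had a median of 0.23 over the members (range -0.54 to 0.68), against 0.01 over all genes, and it was larger in size than the input ratio in 34 of 43 members (79.1%), as in 66.7% of all genes. At 2-fold 0 members were called higher (background 2.5%) and 0 lower (3.17%), and at 1.5-fold PSMD11 alone was higher (10.0%) and 0 were lower (10.7%). Intervals lay above 0 for 30 members (38.7% of all genes) and below 0 for 8 (37.5%). With total counts the median of all genes moves by 0.16, and the share of higher among all 2-fold calls goes to 66.5% with total counts, against 44.0% with size factors. Enrichment and the 2 bead ratios are built from the same 4 libraries, so they are not separate evidence.

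**Figure D3:**
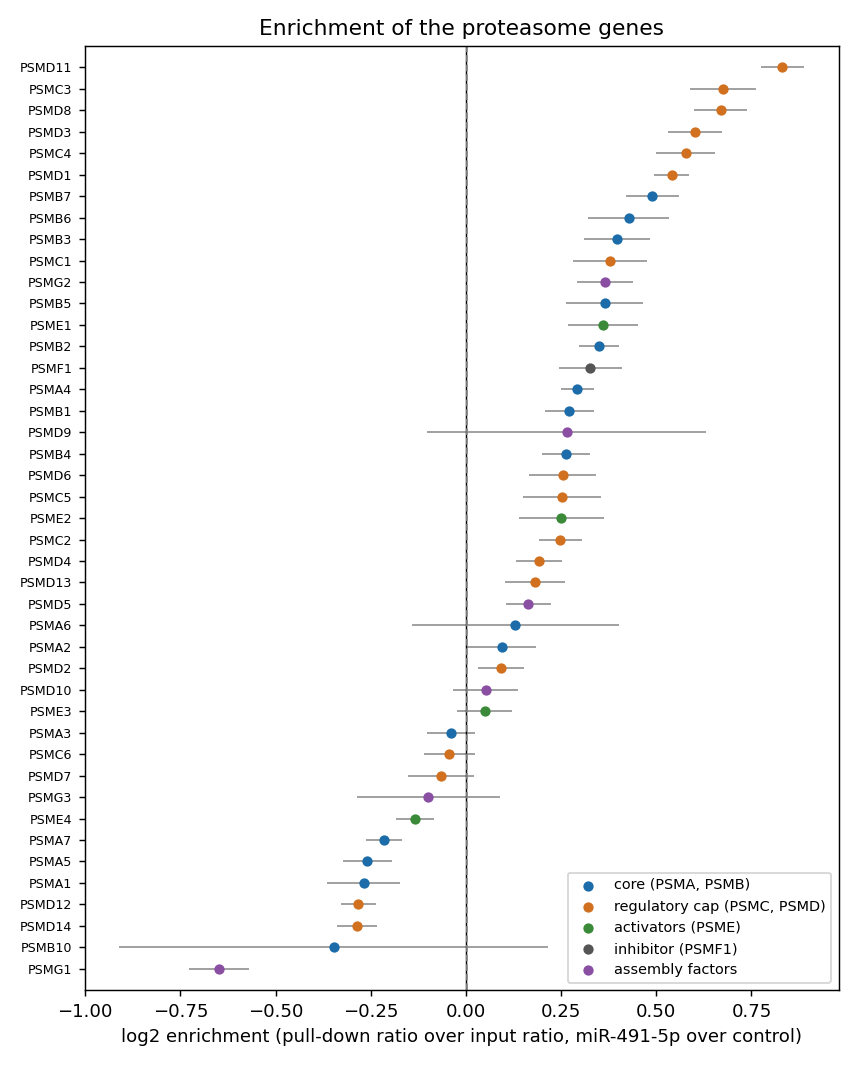
Log2 enrichment of each measured proteasome gene, sorted by enrichment and coloured by role, with 95% counting intervals. PSMD11 lies highest at 0.83 and PSMG1 lowest at -0.65. The dashed line is the median of all genes (0.00), and no member reaches 2-fold.

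The members highest in enrichment belonged to the cap. PSMD11 (ENSG00000108671.9, chromosome 17, 32444261 to 32483318) encodes a lid subunit that links core and cap. It had 10427 normalised counts on the miR-491-5p beads and 6490 on the control beads, against 11153 in the miR-491-5p lysate and 12350 in the control lysate. The control beads are the low one of the 4, at -0.93 (-0.97 to -0.88) to its input, while the miR-491-5p beads held it at -0.10 (-0.13 to -0.06). It reached 0.83 (0.77 to 0.89) in enrichment and 0.68 (0.64 to 0.73) in the pull-down ratio. PSMC3, an ATPase of the cap, had 3986 (miR-491-5p beads) and 2748 (control beads) normalised counts, against 5639 (miR-491-5p lysate) and 6209 (control lysate). It followed with 0.68 (0.59 to 0.76) in enrichment and 0.54 (0.47 to 0.60) in the pull-down ratio. PSMD8 was close behind, with an enrichment of 0.67 (0.60 to 0.74). PSMC4, another ATPase, had 5081 (miR-491-5p beads) and 3514 (control beads) normalised counts, against 7124 (miR-491-5p lysate) and 7350 (control lysate), and an enrichment of 0.58 (0.50 to 0.65) with a pull-down ratio of 0.53 (0.47 to 0.59). PSMD3, a lid subunit, had 5586 (miR-491-5p beads) and 4083 (control beads) normalised counts, against 8143 (miR-491-5p lysate) and 9037 (control lysate), or 0.60 (0.53 to 0.67). In each of these 5 the control beads were lowest and both lysates highest. Their choice by high enrichment favours this order, and other members such as PSMB1, PSMB3 and PSMB4 had it too.

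The lowest members came from different classes. PSMG1 was lowest, with an enrichment of -0.65 (-0.73 to -0.57), a pull-down ratio of -0.54 (-0.59 to -0.48) and an input ratio of 0.11 (0.06 to 0.16). In PSMG1 the miR-491-5p beads were the lowest of the 4 libraries, the reverse of the cap genes above. PSMD14 had an enrichment of -0.29 (-0.34 to -0.23). PSMD12, a lid subunit, had 10658 (miR-491-5p beads) and 13216 (control beads) normalised counts, against 19420 (miR-491-5p lysate) and 19791 (control lysate), and an enrichment of -0.28 (-0.33 to -0.24) with a pull-down ratio of -0.31 (-0.34 to -0.28). The alpha subunit PSMA5 had 5448 (miR-491-5p beads) and 6548 (control beads) normalised counts, against 9900 (miR-491-5p lysate) and 9944 (control lysate), and a pull-down ratio of -0.27 (-0.31 to -0.22). PSMB10, at -0.35 (-0.91 to 0.22), had an interval that held 0.

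By role, the beta ring and the alpha ring differed within the core. The 8 beta genes had a median enrichment of 0.36 and the 7 alpha genes -0.04, a difference with no replicate check. Of the beta genes, 7 were above 0, from PSMB4 at 0.26 to PSMB7 at 0.49, and PSMB10 was below. Of the alpha genes 3 were above 0 (PSMA2, PSMA4 and PSMA6) and 4 below (PSMA1, PSMA3, PSMA5 and PSMA7). With total counts PSMA3 is above 0 too, and the alpha median turns to 0.14 beside 0.54 for the beta ring. Core and cap as a whole had the same median to within 0.01, at 0.26 and 0.25, with 0.31 for the cap ATPases and 0.19 for the other cap genes. Activators had a median of 0.15, assembly factors 0.11, and PSMF1 was at 0.33 (0.24 to 0.41). The range within each class of several genes was wider than the differences between their medians.

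**Figure D4:**
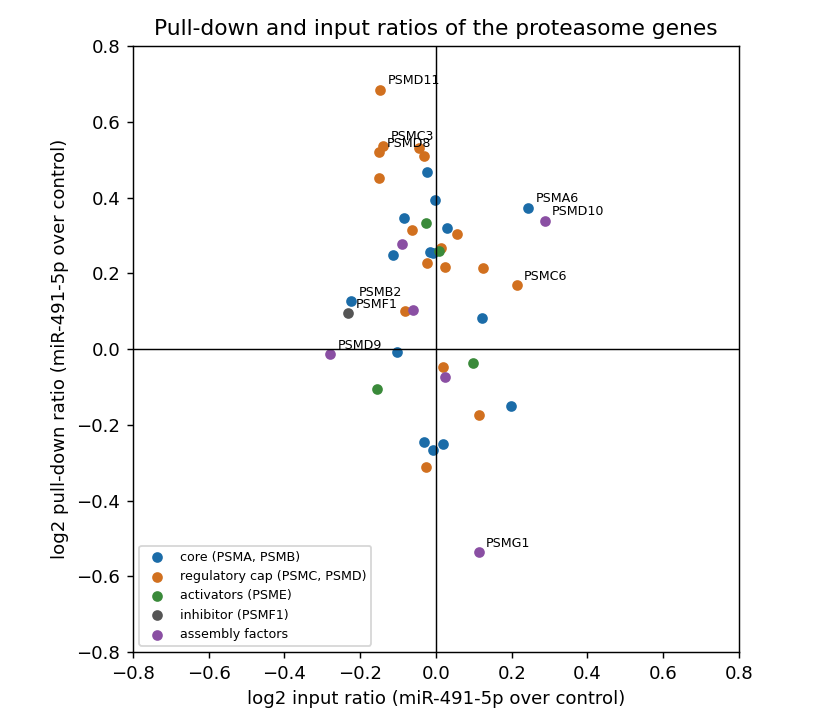
Log2 pull-down ratio (vertical axis) against log2 input ratio (horizontal axis), both miR-491-5p over control, for each measured proteasome gene, coloured by role, with lines at 0. PSMD11 lies highest at a pull-down ratio of 0.68 and PSMG1 lowest at -0.54.

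The 2 bead ratios share no library, and over the 43 members they ran together with Pearson r = 0.50 and Spearman rho = 0.39, given as a description across genes. Over all 12662 genes the values were 0.60 and 0.62. Within the 17 cap genes r was 0.07, and within the 15 core genes 0.15. Over the 43 members exon length ran with both bead ratios, while the mean normalised count hardly did. With log2 of that count r was 0.03 with miR-491-5p, and -0.09 on control beads, against -0.29 and -0.09 over all genes. For enrichment it was 0.12, against -0.16 over all genes. The members' median length was 3582 bases, against 4864.5 over all genes, and shorter members were lower. Over the members r with log2 exon length was 0.50 with miR-491-5p, and 0.49 on control beads (rho 0.47 and 0.52), against 0.19 and 0.21 over all genes (rho 0.25 and 0.29). Within the 17 cap genes r with length was 0.14 with miR-491-5p, and 0.44 on control beads. Within the 15 core genes it was 0.43 and 0.61. The 12 shortest members, of 1179 to 2387 bases, had median bead ratios of -0.86 with miR-491-5p, and -1.13 on control beads. For the 12 longest, of 5364 to 10241 bases, the medians were -0.56 and -0.59. Median enrichment was 0.36 in the short and 0.11 in the long genes, but over all 43 members enrichment hardly ran with log2 length (r = -0.06, rho = -0.15). Core genes had a median of 2256 bases and cap genes 4964, but within the core the alpha ring had 5336 and the beta ring 1820. The median bead ratio with miR-491-5p was -0.86 in both rings. On control beads it was -0.93 in the alpha ring and -1.13 in the beta ring. The part of length in the difference between core and cap was not tested.

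**Figure D5:**
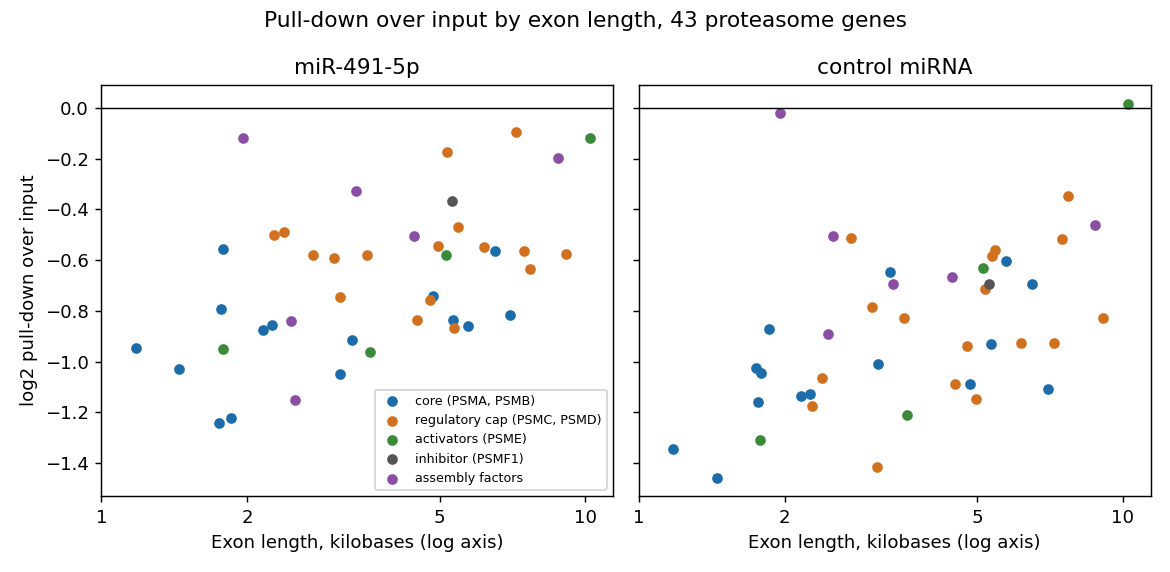
Log2 bead ratio of each measured proteasome gene against its exon length in kilobases (log scale), with miR-491-5p (left panel) and with the control microRNA (right panel), coloured by role. Over the 43 genes together both ratios are lower in shorter genes, with r of 0.50 and 0.49 against log2 length. Within the 17 cap genes r is 0.14 and 0.44, and within the 15 core genes 0.43 and 0.61.

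Promoters were looked at because the members are known to be made together. RefSeq promoters of GRCh38.p14, 250 bases before to 50 after a gene's start, matched 37 of the 43 measured members. The letters TGACNNNGC, the core of the antioxidant response element, stood on either strand in 14 of the 37 (37.8%), and in 17.9% of 15843 protein-coding genes. The box CCAAT, on either strand, stood in 18 of the 37 (48.6%) and in 42.1% of protein-coding genes. The element was found in 3 of 4 activators, 4 of 5 assembly factors, 5 of 16 cap genes and 2 of 11 core genes with a promoter. Windows with up to 10 bases on each side of it are shown on the gene's strand, with the element in capitals, for members that fell in the edgeR test (PSMB3, PSMC5, PSME1, PSME2) and members low in enrichment (PSMD12, PSMG1).
PSMB3, chr17:38752627-38752655, gene on the + strand: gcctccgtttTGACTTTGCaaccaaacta
PSMC5, chr17:63827654-63827682, gene on the + strand: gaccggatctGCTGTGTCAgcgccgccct
PSME1, chr14:24136098-24136126, gene on the + strand: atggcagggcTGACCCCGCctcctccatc
PSME2, chr14:24146767-24146795, gene on the - strand: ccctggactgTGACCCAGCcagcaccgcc
PSMD12, chr17:67366724-67366752, gene on the - strand: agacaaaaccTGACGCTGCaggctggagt
PSMG1, chr21:39183616-39183644, gene on the - strand: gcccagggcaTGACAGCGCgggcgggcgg
The 14 members with the element had median bead ratios of -0.68 with miR-491-5p, and -0.89 on control beads, against -0.63 and -0.87 for the 23 without it. Their median enrichment was 0.28, against 0.13 without it, and their median input ratio -0.03, against -0.01. The values of both sets overlapped widely, and a match says nothing of whether a factor was bound. In PSMC5 the element is on the opposite strand, so its reverse complement is printed.

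Other genes that work with the proteasome were set beside it, as lists counted by the same edgeR test (background 5.09% lower and 6.82% higher). Of 15 measured proteasome-associated genes, POMP and SEM1 fell and 0 rose. POMP, the maturation factor of the core, had 5249 (miR-491-5p beads) and 5222 (control beads) normalised counts, against 12242 (miR-491-5p lysate) and 12902 (control lysate) (edgeR -1.12, adjusted p = 0.024). SEM1, a small lid subunit outside the PSM names, changed by -0.92, adjusted p = 0.035. The list's medians were -0.36 with miR-491-5p, -0.23 with the control and -0.08 in enrichment, against -0.63, -0.89 and 0.25 for the proteasome genes. NFE2L1 itself was at 0.18 with miR-491-5p, and 0.26 on control beads. Of the 6 genes of ubiquitin and its activation, RPS27A and UBB were among those that fell and 0 rose, with medians of -0.78 with miR-491-5p, and -1.23 on control beads. RPS27A encodes ubiquitin fused to a ribosomal protein. UBA1, the main activating enzyme, was at -0.36 and -0.85.

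Of 11 genes for unfolding and shuttling, medians were -0.48 with miR-491-5p, and -0.69 on control beads, and enrichment 0.23. UFD1, a partner of the unfoldase VCP, fell (edgeR -0.79, adjusted p = 0.047) and 0 rose. The COP9 signalosome, a complex built like the lid of the cap, had medians of -0.74 with miR-491-5p, -0.87 with the control and -0.05 in enrichment over 10 genes. COPS9 fell (edgeR -1.33, adjusted p = 0.02) and COPS7B rose (edgeR 0.96, adjusted p = 0.048). The 8 chaperonin genes, another large cytosolic complex, had medians of -0.58, -0.92 and 0.36 in the same order, with 0 calls in either direction by edgeR, 7 lower at an unadjusted p under 0.05 (background 15.3%), and 5 lower by DESeq2 (background 10.5%). Of 75 ribosomal protein genes 50 fell and 0 rose, with medians of -1.04 with miR-491-5p, -1.35 with the control and 0.30 in enrichment. On both beads the proteasome genes thus lay between the median of all genes and the ribosomal protein genes, and their enrichment was close to that of the ribosomal protein genes.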

How the data were processed

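The authors deposited raw counts of reads for each gene. Per the file headers, featureCounts 1.5.0-p1 made them from GENCODE release 24 (hg38) without regard to strand and without reads marked as duplicates, although the kit was a stranded one per the labels' protocols. Per the submitters' processing notes, STAR, DESeq2 1.10.1 and GRCh38 were also used.

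Groups came from the sample titles. Counts were divided here by DESeq2 1.42.0 size factors (miR-491-5p beads 1.24, control beads 1.13, miR-491-5p lysate 0.957, control lysate 0.778). Log2 ratios used the normalised count plus 1. Their standard errors are the counting errors with 0.5 added to each count, and the 95% intervals run 1.96 standard errors each side. A call needed 2-fold and an interval excluding 0. Genes needed a mean normalised count of at least 50. Reads are not independent molecules, so intervals and floors cover counting error only. Levels are counts per kilobase of exon, scaled to 1000000 per library. Pull-down against input was tested with edgeR 4.0.16 (glmQLFit and glmQLFTest, TMM factors, transfection as a block, R 4.3.3) and adjusted over all 12662 genes. The steps were run on simulated data. The ratios were simulated with counting error only, and the edgeR test with an assumed spread and equal changes in both pairs. Those settings differ from the data, so the simulation does not check the results given here.

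The table holds gene identifiers without names. Rows were named by matching their coordinates to RefSeq genes (GRCh38.p14), which named 11707 of the measured genes; 42 of the 43 members kept their name under a stricter match, and PSMD9 did not. Sequences are RefSeq's. Members and lists were chosen with earlier results of these data known. All members are named; values in all 4 libraries are given for the 3 highest and 3 lowest of each ratio with an interval excluding 0, the catalytic subunits, activators, inhibitor and assembly factors, and for PSMA3 and PSMD3, chosen after their values were seen. Of each other list, the 2 highest and 2 lowest by bead ratio or enrichment may be named; UBB was named after its values were seen, and some listed genes are not reported here. Alternatives changed the scaling, the pseudocount, the count minimum, the fold, the members and the test. Seed sites in transcripts were planned and not analysed here.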

Additional observations from a re-analysis of the deposited data

Results flagged for a closer look

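PSME4, the large single-chain activator, lay below its input on the miR-491-5p beads, at -0.12 (log2), and above it on the control beads, at 0.02. The difference, -0.13, is listed because the 2 transfections ran in opposite directions with the size factors used here. With 1 library per group the difference was not tested, and the control interval held 0. The opposite directions depend on the scaling: they remain with TMM factors (-0.10 on miR-491-5p beads, 0.05 on control beads), but both ratios are above 0 with total counts (0.20 and 0.16) and with size factors over protein-coding genes (0.01 and 0.18).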

How the results depend on the processing

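TMM factors, a pseudocount of 5, count minimums of 10 or none, PSMC3IP as a member and, chosen after seeing the data, the row spanning PSMG4 as a member moved no median past the counting interval typical of a member and no 2-fold count past 1.5 times. No 2-fold call and no median over all measured proteasome genes changed direction under any alternative run, but some medians near 0 over single roles or over all genes did. With total counts the alpha ring's median enrichment became 0.14 and the all-gene median of the miR-491-5p beads 0.17, and with size factors over protein-coding genes the all-gene median of the control beads became 0.01. Total counts moved the medians to 0.43 for enrichment, 0.38 for the pull-down ratio, -0.31 for the miR-491-5p beads and -0.75 for the control beads. They left 0 members 2-fold lower with miR-491-5p (1.03% of all genes) and 8 on control beads (6.48%), and 1 higher in enrichment (7.01%). Size factors over protein-coding genes gave medians of -0.51 with miR-491-5p, and -0.73 on control beads, and 3 and 6 members 2-fold lower (2.9% and 5.88% of all genes). The stricter match of names, and leaving out PSMA6, PSMB10 and PSMD9, both chosen after seeing the data, each moved the miR-491-5p bead median to -0.69. At 1.5-fold the calls were 4 higher and 1 lower in enrichment, 1 higher in the pull-down ratio, and 23 lower with miR-491-5p, and 34 on control beads. The 11 members that fell in edgeR (5.09% of all genes) became 21 with DESeq2 (10.5%), 21 with DESeq2 size factors in edgeR (10.2%), 23 of 44 with no count minimum (4.54%), 7 with total counts (3.37%), and 1 with 2-fold required too (2.65%). All 11 were shared except with total counts and with 2-fold required, and those 7 were among the 11. With no transfection block 15 fell (6.24%), and with a minimum of 10, 14 (5.26%). The edgeR test is paired by transfection; no pairing by replicate number exists with 1 library per group. Core minus cap kept its sign on both beads under the alternatives run. Of these, total counts could hardly change it, because a scaling shifts all genes almost alike. Low counts limit PSMB10, PSMD9 and PSMA6.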
